A study of Homo sapiens with 12 samples.

Results

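The desmosomal cadherins are 7 genes that lie side by side on chromosome 18: the desmocollins DSC1, DSC2 and DSC3 and the desmogleins DSG1, DSG2, DSG3 and DSG4. All 7 were matched by symbol among the 57820 genes of each count table, in 12 RNA-seq libraries of PLC/PRF/5, a human hepatoma cell line whose cells the labels call epithelial. DSC2, DSC3 and DSG4 were chosen by their counts in these same libraries, which were close to 0 in both knockout lines, with and without rescue, so their levels are a description here and carry no test. DSC1, DSG1, DSG2 and DSG3 entered by family name, and the question is whether the whole cluster is as silent as the 3 genes first seen.

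Desmosomes are the spot-like junctions that tie epithelial cells to each other and anchor their keratin filaments. In each, desmocollins and desmogleins of neighbouring cells bind outside the membrane, and their tails bind the plaque proteins plakoglobin (JUP) and plakophilins, which bind desmoplakin (DSP), the link to keratin. DSG2 and DSC2 are the forms of simple epithelia such as the liver's, whereas DSG1, DSG3, DSC1 and DSC3 are best known from skin and other layered epithelia, and DSG4 from hair follicles.

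The libraries form 3 groups of 4. KO_RES libraries came from HKDC1 knockout cells in which HKDC1, a hexokinase domain protein, had been put back. KO libraries came from the HKDC1 knockout cells, and control libraries from wild-type PLC/PRF/5 cells. The titles name 2 knockout lines, KO1 and KO2, and 2 libraries come from each line in each state, so that KO1_RES is the rescue of line KO1. Nothing in the labels tells whether a line is 1 clone, which construct restored HKDC1, or whether replicates are separate cultures, so p-values measure only the spread between these libraries, which may be technical. For 4 of the 12 libraries (KO1 and KO2 number 2, KO1_RES and KO2_RES number 1) the genotype field names another state than the title; groups follow the titles.

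Counts assigned to genes ran between 36075411 and 60154638 in KO_RES, 42609910 and 68040103 in KO, and 57333288 and 71853616 in control libraries. HKDC1 itself was at 1240, 1550, 507 and 626 CPM (counts scaled to library size) in the KO1_RES and KO2_RES libraries, at 153, 147, 91.2 and 49.3 CPM in the KO1 and KO2 libraries, and at 157, 154, 183 and 124 CPM in controls 1 to 4. By edgeR's quasi-likelihood test its RNA was lower than control in KO2 (log2 fold change -1.14, adjusted p = 0.0161; 0.124 without KO2 replicate 2) and not called in KO1 (-0.05, adjusted p = 0.92). It rose in KO1_RES against KO1 (3.22, adjusted p = 0.0045) and in KO2_RES against KO2 (3.01, adjusted p = 0.0159). All 11 liver markers examined averaged over 1 CPM in every group. Their summed level varied widely, at 4620 to 34600 CPM in KO_RES, 5290 to 28500 CPM in KO and 10700 to 18200 CPM in control libraries. Of 8 markers of layered epithelium KRT5, KRT14, KRT1, IVL and LORICRIN stayed at 3 counts or fewer in all 12 libraries, whereas KRT10, a keratin of upper skin layers, was at 22.3 to 31.6 CPM in KO_RES, 26.1 to 37.9 CPM in KO and 24.6 to 36.6 CPM in control libraries. Controls 1 and 2 stood apart from controls 3 and 4, also in this cluster, and are given apart where it matters.

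The starts of these genes differ in sequence, and 4 promoters are shown to set DSC2, DSC3 and DSG2, which control cells expressed, beside DSG1, which they hardly did. DSG4 has no entry in the promoter table. In the RefSeq promoter table (GRCh38.p14, 250 bases before to 50 after a start) the 300-base windows held 15 and 22 CpG dinucleotides at the first and the second start of DSC2, 25 at DSC3, 36 at DSG2, 2 at DSC1, 3 at DSG1 and 6 at DSG3, against a median of 14 over 35116 promoters. The 250 bases before the start are printed 5′ to 3′ along the gene, with each CpG in capitals. They are chr18:31102422-31102671 on the minus strand for the DSC2 start with 15 CpG, chr18:31042743-31042992 on the minus strand for DSC3, chr18:31497927-31498176 on the plus strand for DSG2 and chr18:31317910-31318159 on the plus strand for DSG1.
DSC2: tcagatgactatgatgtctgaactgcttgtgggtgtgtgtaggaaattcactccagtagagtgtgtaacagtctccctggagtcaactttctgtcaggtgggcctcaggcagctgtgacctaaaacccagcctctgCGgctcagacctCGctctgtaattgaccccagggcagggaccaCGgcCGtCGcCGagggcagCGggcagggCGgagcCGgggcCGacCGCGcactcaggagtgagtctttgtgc
DSC3: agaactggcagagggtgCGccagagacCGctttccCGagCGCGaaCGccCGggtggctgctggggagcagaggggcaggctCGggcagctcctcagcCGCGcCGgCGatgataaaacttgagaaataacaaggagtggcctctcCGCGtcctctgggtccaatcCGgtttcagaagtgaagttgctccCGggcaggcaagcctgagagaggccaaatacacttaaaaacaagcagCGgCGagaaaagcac
DSG2: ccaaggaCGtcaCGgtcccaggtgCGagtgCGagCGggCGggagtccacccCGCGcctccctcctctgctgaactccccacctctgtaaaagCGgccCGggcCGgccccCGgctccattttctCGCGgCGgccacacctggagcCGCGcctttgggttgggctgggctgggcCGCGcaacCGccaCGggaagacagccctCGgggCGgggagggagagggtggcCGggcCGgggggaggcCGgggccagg
DSG1: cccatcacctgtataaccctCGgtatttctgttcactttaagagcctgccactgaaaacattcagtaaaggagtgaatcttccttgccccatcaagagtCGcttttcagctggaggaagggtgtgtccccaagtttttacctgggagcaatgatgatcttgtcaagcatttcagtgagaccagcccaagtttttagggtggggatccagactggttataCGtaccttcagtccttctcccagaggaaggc

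The DSG2 and DSC3 runs are dense in capitals, the DSC2 run carries them mostly toward its end, and the DSG1 run holds 3. Only 12.7% of promoters held as many CpG in the window as DSG2, whereas 24.5% held as few as DSG1. Both strands of these 6 genes' windows were searched for 9 motifs. GGGCGG, the core of a GC box, matched 2 times at DSG2, 1 and 2 times at the DSC2 starts and not at DSC1, DSC3, DSG1 or DSG3, and 45.0% of promoters hold it. AACCGG, a Grainyhead-type core, and CCAAT each matched once, at DSC3, and are held by 7.23% and 34.6% of promoters. CTTTGA, a TCF/LEF core, matched once, at DSG1, in a background of 12.9%. CACGTG (7.26% of promoters), TATAAA (11.5%) and TGANTCA (7.71%) matched none of the 6. ACGTG, held by 21.4% of promoters, matched 3 times at the second start of DSC2, and the loose CANNTG, held by 68.7% and covering CACGTG, matched at DSC1, 1 start of DSC2, DSG1, DSG2 and DSG3. A match is a description of letters, not a binding site.

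The 4 cadherins that control cells expressed, DSG2, DSC2, DSC3 and DSG4, were far lower in rescued and knockout cells, but the cluster was not silent: DSG2 remained. Of these 4, DSC2, DSC3 and DSG4 were chosen for being low, and DSC1, DSG1 and DSG3 were hardly expressed in control cells. The summed level of the 7 genes was between 1.365 and 2.469 CPM in KO_RES, between 1.211 and 10.24 CPM in KO and between 126 and 250.3 CPM in control libraries. DSG2 made up 94.2% to 99.2% of the cluster's counts in KO_RES and 93.3% to 98.8% in KO libraries, against 48.9% to 77.7% in control libraries. Without DSG2, the other 6 genes together held between 0.0195 and 0.113 CPM in KO_RES, between 0.0551 and 0.192 CPM in KO and between 28.1 and 121 CPM in control libraries. A count of 0 to 3 is read here as the floor, 0.0408 to 0.0849 CPM by library. Such floors, and the intervals given with percentages, cover counting error alone. The intervals pool the counts of a group, so the spread between its libraries is left out. PCR copies were not told apart from separate molecules, so even counting error may be understated. At 0 to 3 counts, 5 members were at the floor in every KO_RES library, 5 in every KO library and 1, DSG3, in every control library.

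**Figure D1:**
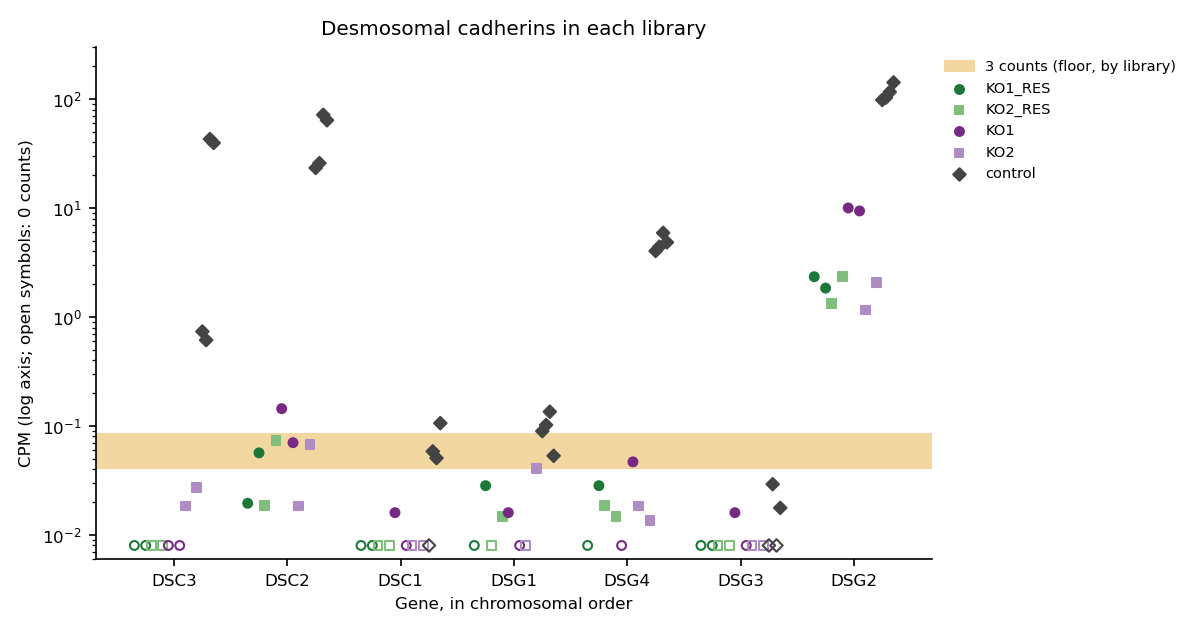
Level of each desmosomal cadherin in CPM (log axis) in every library, genes in chromosomal order, groups from left to right KO1_RES, KO2_RES, KO1, KO2 and control; open symbols at the bottom mark 0 counts and the band marks 3 counts. DSG2 stays between 1.16 and 10 CPM in the 8 knockout and rescue libraries, while DSC2, DSC3 and DSG4 lie near or under the band there and far above it in controls.

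DSC2 (ENSG00000134755.10), the desmocollin of simple epithelia, had 1 and 2 counts in the KO1_RES libraries, 1 and 5 in the KO2_RES libraries, 9 and 3 in the KO1 libraries, 1 and 5 in the KO2 libraries, and 1298, 1764, 4240 and 3598 in controls 1 to 4. Every control library stood far above every other library. On the CPM scale it averaged 0.0422 ± 0.0276 in KO_RES, 0.0751 ± 0.0517 in KO and 46.1 ± 25.2 in control libraries (SD, n = 4 each). The control pairs differed, at 24.5 CPM in controls 1 and 2 and 67.7 CPM in controls 3 and 4. Pooled counts put KO_RES at 0.0954% of the control level (95% counting interval 0.0436% to 0.181%) and KO at 0.17% (0.101% to 0.268%). Against controls 1 and 2 alone KO_RES was at 0.176% and KO at 0.313%, and against controls 3 and 4 alone at 0.0639% and 0.114%. The KO1_1 library, at 0.144 CPM, held the highest value among the 8.

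DSC3 (ENSG00000134762.12), a desmocollin of basal layers of skin, had 0 counts in all 4 KO_RES libraries, 0 in both KO1 libraries, 1 and 2 in the KO2 libraries, and 41, 42, 2542 and 2227 in controls 1 to 4. The controls thus split into a pair near 0.674 CPM and a pair near 41.2 CPM, and even the lower pair stood above all 8 knockout and rescue libraries. With 3 counts over the group as the limit that a count of 0 allows, DSC3 was at least 1400-fold lower in KO_RES than in all 4 control libraries, at least 46.2-fold lower than in controls 1 and 2 and at least 2850-fold lower than in controls 3 and 4. The KO libraries held 0.0636% of the level of all controls (counting interval 0.0131% to 0.186%), 1.92% of that of controls 1 and 2 (0.389% to 5.82%) and 0.0312% of that of controls 3 and 4 (0.00643% to 0.0911%).

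DSG4 (ENSG00000175065.7), the desmoglein known from hair, had 0, 1, 1 and 1 counts in KO1_RES and KO2_RES libraries, 0, 2, 1 and 1 in KO1 and KO2 libraries, and 225, 302, 350 and 273 in controls 1 to 4. Unlike DSC2 and DSC3 it hardly differed between the control pairs, which averaged 4.22 and 5.38 CPM. KO_RES stood at 0.301% of the control level (counting interval 0.0621% to 0.883%) and KO at 0.358% (0.0973% to 0.918%).

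Over the whole series, 13902 genes averaged at least 1 CPM in control libraries, among them 4 of the 7 cadherins. Of these genes, 22 (0.158%) were under 0.25 CPM in every KO and KO_RES library, and 3 of the 22 were DSC2, DSC3 and DSG4. Since low levels in these libraries chose the 3 genes, nothing is read from that share. DSC2 was the member nearest to the limit from inside, with a highest value of 0.144 CPM, and DSG2, the one member with at least 1 CPM in controls that lay outside it, was well clear of it, between 1.16 and 10 CPM in the 8 libraries.

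DSG2 (ENSG00000046604.8), the most widely expressed desmoglein, had 120 and 65 counts in the KO1_RES libraries, 71 and 160 in the KO2_RES libraries, 629 and 401 in the KO1 libraries, 63 and 152 in the KO2 libraries, and 5459, 7056, 6840 and 8013 in controls 1 to 4. All 8 knockout and rescue libraries were below all 4 controls, and none of the 8 was near the floor. It averaged 1.97 ± 0.492 CPM in KO_RES, 5.66 ± 4.70 CPM in KO and 115 ± 19.7 CPM in control libraries (SD, n = 4 each). The fit of 3 groups tested 19200 genes, and 4 of the 7 cadherins passed its filter on low counts; only DSG2 among the 4 that entered by name did. DSG2 fell in KO against control (edgeR log2 fold change -4.34, SE 0.61, adjusted p = 0.00281), where 3.41% of all tested genes were called lower, and in KO_RES against control (-5.86, SE 0.66, adjusted p = 0.000819), where 3.29% were. Both contrasts use the same controls, and the 4 libraries of each knockout state come from 2 lines, which this fit does not tell apart. The calls held without controls 1 and 2 (adjusted p = 0.0155 for KO and 0.0046 for KO_RES) and without controls 3 and 4 (0.00691 and 0.00203). When the 4 libraries with conflicting labels were left out, the fold changes were -4.35 and -5.75 and the calls were lost (adjusted p = 0.0798 and 0.0538). Over all alternatives run, adjusted p lay between 9.1e-14 and 0.0798 for KO and between 4.65e-25 and 0.0538 for KO_RES. The summed level of 5 biliary markers (KRT7, KRT19, EPCAM, SOX9 and CFTR) was 185 to 514 CPM in KO_RES, 259 to 355 CPM in KO and 13.8 to 65.3 CPM in control libraries, with none at the floor throughout. Single markers went different ways: KRT7 averaged 0.793 CPM in KO_RES, 1.48 CPM in KO and 2.69 CPM in control libraries. KRT19 was at 0.937 and 0.538 CPM in KO1_RES, 210 and 108 CPM in KO2_RES, 8.86 and 7.05 CPM in KO1, 229 and 194 CPM in KO2, and 0.502, 0.657, 38.5 and 34.2 CPM in control libraries. In line 1, KRT7 and KRT19 made up little of these sums. Most of the sums there lay in EPCAM, SOX9 and CFTR, which are not given singly here. The part of the biliary markers in the result was not tested. In bulk RNA, fewer cells with a transcript and less of it per cell cannot be told apart.

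The 2 knockout lines kept different amounts of DSG2. Its mean level was 1.61 CPM in KO2 and 9.72 CPM in KO1 libraries, or 1.47% and 8.57% of the control level. A fit of 5 groups over 20559 genes gave log2 fold changes of -3.56 (SE 0.30, adjusted p = 5.65e-05) in KO1, where 9.74% of genes were called lower, and -6.14 (SE 0.35, adjusted p = 9.11e-06) in KO2, where 5.24% were. The difference between the lines was itself called, at -2.58 for KO2 minus KO1 (SE 0.32, adjusted p = 0.000731), in a comparison that called 12% of genes in either direction. Both calls against control and the call between lines held without any 1 library.

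Rescue with HKDC1 did not bring DSG2, the cadherin tested, to control levels, and DSG2 was not called higher in KO_RES than in KO. DSC2, DSC3 and DSG4 were chosen for being low in the rescue libraries too, so nothing is read from their levels after rescue. For KO_RES against KO the log2 fold change of DSG2 was -1.52 (SE 0.56, unadjusted p = 0.0195, adjusted p = 1.0), in an edgeR comparison that called 0.0% of genes (0 of 19200, with 473 at an unadjusted p under 0.05; DESeq2 called 6). HKDC1, the gene put back, was not called in that edgeR comparison either, at a log2 fold change of 3.15. The missing call of DSG2 therefore does not show that DSG2 was unchanged. When the libraries were paired within lines by number, 8 genes (0.0437% of 18293) were called and DSG2 was not one of them (-1.06, adjusted p = 0.377). The rescue libraries differed by line. In line 1, DSG2 was at 2.34 and 1.84 CPM in KO1_RES and 10 and 9.39 CPM in KO1 libraries, and it fell (log2 fold change -2.21, SE 0.32, adjusted p = 0.0288; 0.195% of genes were called, 0.156% lower). That call was lost without either KO1 library, either KO1_RES library, control 1 or control 2, with adjusted p between 0.0522 and 0.342. In line 2, DSG2 was at 1.33 and 2.37 CPM in KO2_RES and 1.16 and 2.07 CPM in KO2 libraries (log2 fold change 0.19, SE 0.32, adjusted p = 1.0; 0.00486% of genes were called), a difference whose sign turned without KO2 replicate 1 or KO2_RES replicate 2. After rescue the lines lay together, at 1.87% of the control level in KO1_RES (counting interval 1.61% to 2.17%) and 1.67% in KO2_RES (1.46% to 1.9%). The difference in rescue effect between the lines, 2.39 on the log2 scale for line 2 minus line 1 (SE 0.45), had an unadjusted p of 0.000263 and an adjusted p of 0.513, and 0.0% of genes were called for that difference. Each rescue line was also below control on its own, at -5.77 for KO1_RES (SE 0.35, adjusted p = 6.68e-06; 18.2% of genes called) and -5.95 for KO2_RES (SE 0.35, adjusted p = 1.01e-05; 9.62%).

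DSC1, DSG1 and DSG3, the cadherins of layered epithelia, were too low to pass the filter and were hardly expressed in control cells either. DSG1 (ENSG00000134760.5), of the upper skin layers, had 0, 1, 0 and 1 counts in KO1_RES and KO2_RES libraries, 1, 0, 0 and 3 in KO1 and KO2 libraries, and 5, 7, 8 and 3 in controls 1 to 4. DSC1 (ENSG00000134765.5), its partner there, had 0 counts in every KO_RES library, 1, 0, 0 and 0 in KO1 and KO2 libraries, and 0, 4, 3 and 6 in controls 1 to 4. DSG3 (ENSG00000134757.4), of the basal skin layer, had 0 counts in every KO_RES library, 1, 0, 0 and 0 in KO libraries, and 0, 2, 0 and 1 in controls. A lower level in knockout than in control cells was not detectable for DSG3 at this depth. In sums over 4 libraries DSG1 had 2 counts in KO_RES, 4 in KO and 23 in control libraries, which put KO_RES at 10% of the control level (counting interval 1.15% to 40.7%) and KO at 17.9% (4.49% to 52.3%). DSC1 had 0 counts in KO_RES, 1 in KO and 13 in control libraries, so that the counting interval reached 37.9% of control for KO_RES, and KO was at 7.91% (0.186% to 52.6%). Tested without the filter, none of the 3 was called: against control the adjusted p in KO was 0.264 for DSC1, 0.189 for DSG1 and 0.689 for DSG3, and in KO_RES it was 0.154, 0.13 and 0.488 for the same genes.

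Per kilobase of exon, which allows genes to be compared, the order in control libraries was DSG2 at 18.5 ± 3.19 CPM per kb, DSC2 at 3.69 ± 2.01, DSC3 at 2.97 ± 3.32 and DSG4 at 1.02 ± 0.173 (SD, n = 4). DSG2 was first in each control. The means of DSC2 and DSC3 lay within their SDs, which carry the split between the control pairs. In controls 1 and 2 DSC2 was at 1.86 and 2.06 CPM per kb, far above DSC3. DSC3 was at 6.08 and 5.59 CPM per kb in controls 3 and 4, above DSC2 at 5.73 and 5.10, but at 0.104 and 0.0869 CPM per kb in controls 1 and 2, below DSG4. DSG1, DSC1 and DSG3 followed at 0.0181, 0.0126 and 0.00212 CPM per kb. Scaled by coding length instead, DSG2 at 34.2, DSC2 at 17.1, DSC3 at 7.79 and DSG4 at 1.51 CPM per kb kept the order of the means. By coding length DSC3, at 16 and 14.7 CPM per kb in controls 3 and 4, was below DSC2, at 26.5 and 23.6, so the order of these genes in that pair turned with the length used. In KO_RES libraries DSG2 stood at 0.318 ± 0.0794 and in KO libraries at 0.915 ± 0.760 CPM per kb of exon, and no other member exceeded 0.0115 in any of those 8 libraries.

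In the fit of 3 groups TTR was the one tested neighbour that was called beside the cluster. In annotation order the cluster runs DSC3, DSC2, DSC1, DSG1, DSG4, DSG3, DSG2, and 13 annotated genes lie between its ends and include no other protein-coding gene. The antisense transcript DSCAS had 1 count in KO_RES, 0 in KO and 18 in control libraries over 4 libraries each, and DSG1-AS1 had 4, 7 and 20; AC012417.1 and AC021549.1 reached at most 3 and 4 counts in any library, and RNU6-167P and Y_RNA had 0. Of the 16 protein-coding neighbours, 8 on each side, 12 were tested in the fit of 3 groups. For both KO and KO_RES against control 1 of the 12 fell and 11 were not called, with a median log2 fold change of 0.07 in KO and -0.01 in KO_RES, against 0.01 and 0.03 over all genes tested. On all of chromosome 18, 8.28% of 290 tested genes were called in KO and 5.86% in KO_RES against control.

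**Figure D2:**
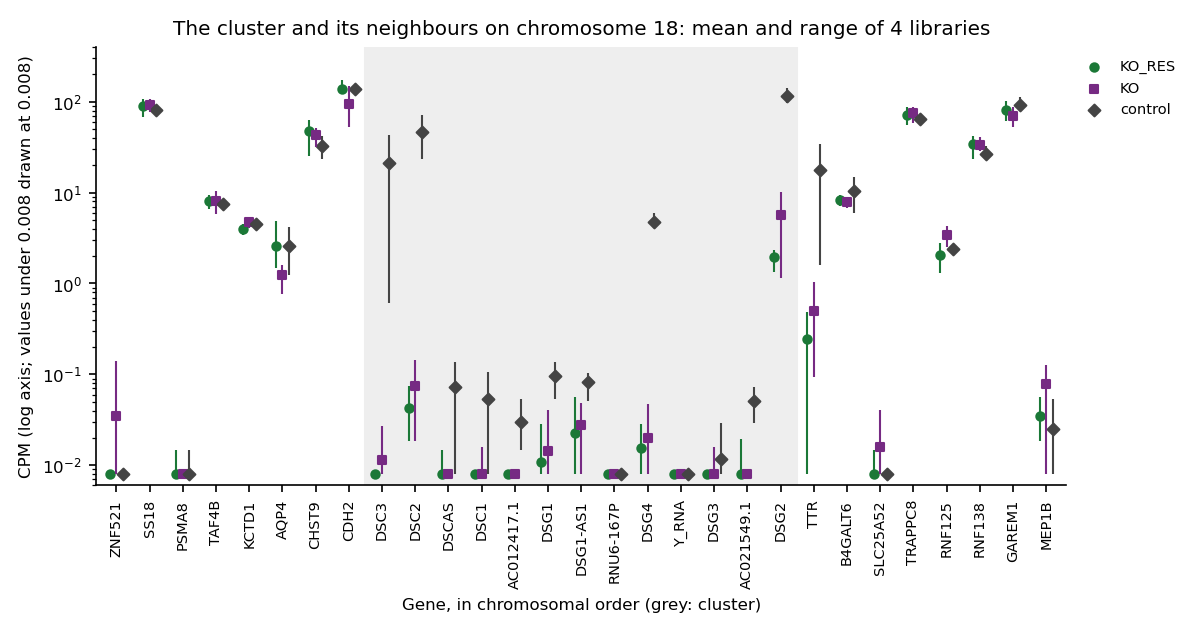
Mean level in CPM (log axis) with the range over 4 libraries for KO_RES, KO and control, for the genes inside the cluster (grey) and 8 protein-coding neighbours on each side, in chromosomal order without distances; the lowest values are drawn at the bottom of the axis. SS18, TRAPPC8, RNF138 and GAREM1 lie together in all groups, while the expressed cadherins lie far below control in KO_RES and KO. The means of TTR do so too, but its control range reaches down to 1.6 CPM, near its highest KO library at 1.03 CPM.

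TTR, the gene next to DSG2, encodes transthyretin, a carrier of thyroxine secreted by the liver. It had 2, 0, 26 and 31 counts in KO1_RES and KO2_RES libraries, 10, 4, 56 and 53 in KO1 and KO2 libraries, and 1905, 2259, 162 and 90 in controls 1 to 4, so that controls 3 and 4 were themselves far below controls 1 and 2. It fell in KO against control (log2 fold change -5.14, SE 1.27, adjusted p = 0.0353) and in KO_RES against control (-6.10, SE 1.34, adjusted p = 0.0235). Leaving out control 1, control 2 or any KO library ended the first call (adjusted p = 0.0659 to 0.0961), leaving out control 1, control 2 or either KO1_RES library ended the second (0.0595 to 0.0621), and without controls 1 and 2 the values were -2.10 (adjusted p = 0.41) and -3.08 (0.228). CDH2, N-cadherin, is the neighbour on the other side, next to DSC3. It was at 124 and 123 CPM in KO1_RES, 175 and 133 CPM in KO2_RES, 58.4 and 52.8 CPM in KO1, 149 and 117 CPM in KO2 and 149, 140, 144 and 123 CPM in control libraries. Only the KO1 libraries stood low: CDH2 fell in KO1 against control (log2 fold change -1.33, SE 0.15, adjusted p = 0.000404), and KO2 minus KO1 was 1.26 (SE 0.17, adjusted p = 0.00115). It rose in KO1_RES against KO1 (1.16, SE 0.17, adjusted p = 0.0288), where DSG2 fell, but that call was lost without either library of KO1 or KO1_RES, control 1, control 2 or KO2 replicate 1 (adjusted p = 0.0534 to 0.294). GAREM1, an adaptor of growth factor signalling on the TTR side, fell in KO2 against control (-0.71, SE 0.16, adjusted p = 0.0204; 0.105 and 0.16 without either KO2 library), and its difference between the lines was not called.

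Of the 10 plaque and membrane partners, JUP alone followed the cadherins down in every contrast with control. Plakoglobin (JUP), which binds the tails of desmosomal and classical cadherins, was at 30, 26.8, 54.2 and 56.4 CPM in KO1_RES and KO2_RES libraries, 36.3, 39.8, 47.2 and 57.6 CPM in KO1 and KO2 libraries, and 105, 108, 207 and 259 CPM in controls 1 to 4. The groups did not overlap with control. JUP fell in KO (log2 fold change -1.91, SE 0.34, adjusted p = 0.00852) and KO_RES (-2.02, SE 0.34, adjusted p = 0.00734) against control, and lost both calls when the libraries with conflicting labels were left out (adjusted p = 0.122 and 0.109). By line it fell in KO1 (-2.16, SE 0.36, adjusted p = 0.00275) and KO2 (-1.70, SE 0.35, adjusted p = 0.0128; 0.139 and 0.0812 without either KO2 library). Of the 8 partners tested 0 rose, 1 fell and 7 were not called in either contrast, beside 6.28% of all genes called in KO and 5.47% in KO_RES against control; the median log2 fold change of the 8 was 0.02 in KO and -0.04 in KO_RES, against 0.01 and 0.03 over all genes tested.

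DSP, desmoplakin, pointed the other way. It was at 597, 678, 471 and 462 CPM in KO1_RES and KO2_RES libraries, 566, 569, 454 and 505 CPM in KO1 and KO2 libraries, and 360, 322, 382 and 445 CPM in controls 1 to 4. All 8 lay above all 4 controls, but the difference was not called over the 3 groups (KO against control 0.47, SE 0.15, adjusted p = 0.0889; 0.0383 by DESeq2). In line 1 it rose (KO1 against control 0.59, SE 0.13, adjusted p = 0.0133, lost without either KO1 library at 0.0995 and 0.0911). The log2 fold change of KO against control was 0.19 (SE 0.10, adjusted p = 0.3) for plakophilin PKP2, the main plakophilin of simple epithelia, 0.10 (SE 0.15, adjusted p = 0.757) for PKP4, a plakophilin also of adherens junctions, and -0.06 (SE 0.25, adjusted p = 0.925) for PERP, a membrane protein of desmosomes. PKP3, PPL and EVPL were not called either over the 3 groups. EVPL split the controls, at 0.842 and 0.993 CPM in controls 1 and 2 and 24.6 and 25.9 CPM in controls 3 and 4. It was between these pairs in the other libraries, at 9.46 to 21.0 CPM in KO_RES and 12.1 to 22.3 CPM in KO. In KO1_RES against control DSP rose and PPL fell, beside 18.2% of all genes called. PKP1 and CDSN, known from layered epithelia, did not pass the filter, and CDSN was at 0 counts throughout.

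**Figure D3:**
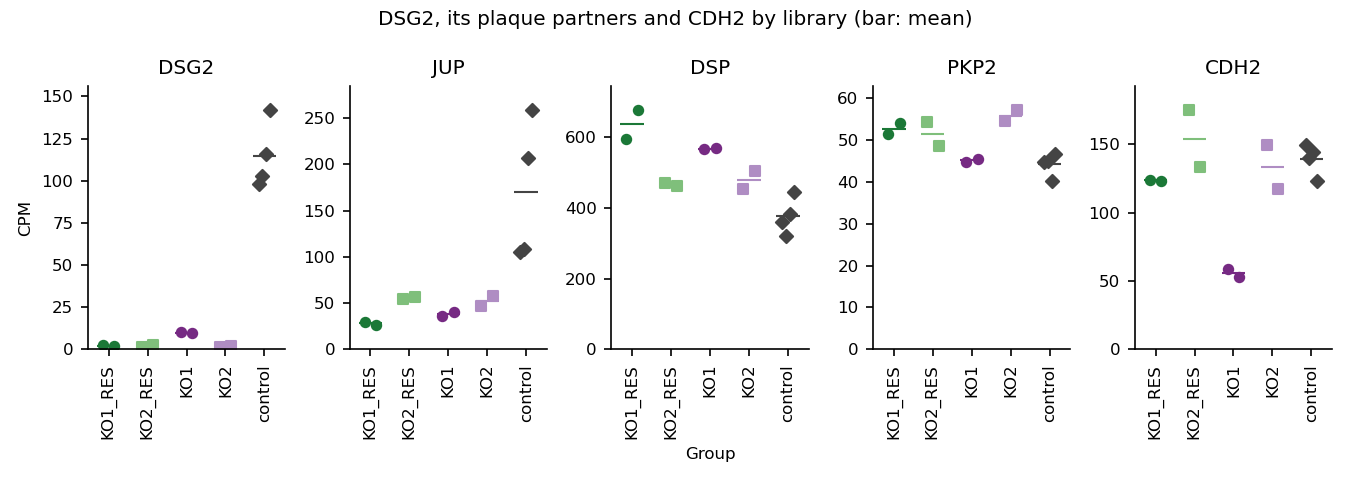
Level in CPM of DSG2, JUP, DSP, PKP2 and the flanking gene CDH2 in every library (points) with the group mean (bars), groups from left to right KO1_RES, KO2_RES, KO1, KO2 and control. DSG2 and JUP lie below control in all 8 knockout and rescue libraries, DSP lies above it, and CDH2 is low only in the 2 KO1 libraries.

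The keratins that desmosomes anchor were not called in KO against control over both lines. KRT8 and KRT18, the pair of simple epithelia, were at 1967 ± 169 and 1868 ± 273 CPM in KO libraries and 2043 ± 272 and 1803 ± 400 CPM in control libraries (SD, n = 4 each), with log2 fold changes of -0.05 (adjusted p = 0.886) and 0.05 (adjusted p = 0.913). Of 8 keratins tested among 12 none was called in KO against control, where 6.28% of all genes were, and in KO_RES against control KRT7, a keratin of ducts, fell (-1.75, SE 0.35, adjusted p = 0.0158; 0.0541 without KO1_RES replicate 2) and 7 were not called, beside 5.47% of all genes called. The median log2 fold change of the 8 was -0.01 in KO and -0.30 in KO_RES, against 0.01 and 0.03 over all genes tested. By line, 0 keratins rose against control. None of the 8 fell in KO1, where 18.1% of all genes were called. KRT7 fell in KO2 and KO2_RES, beside 10% and 9.62% of all genes called. In KO1_RES KRT7, KRT20 and KRT80 fell, beside 18.2% of all genes called, with a median of -1.16 against -0.02 over all.

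Among the 19 adherens and tight junction genes reported here, all tested, 0 rose, 1 fell and 18 were not called in KO against control, beside 6.28% of all genes called, with a median log2 fold change of -0.07 against 0.01 over all genes tested. CDH1, E-cadherin, was at 21, 39.2, 17.4 and 50.9 CPM in KO1_RES and KO2_RES libraries, 29.1, 45.7, 20.5 and 46.1 CPM in KO1 and KO2 libraries, and 88, 98.9, 71.3 and 98.7 CPM in controls 1 to 4, without overlap with control. It fell in KO (log2 fold change -1.34, SE 0.35, adjusted p = 0.0421) and in KO_RES (-1.47, SE 0.35, adjusted p = 0.0308). The first call was lost without any 1 of the 4 controls, the 4 KO libraries or KO1_RES replicate 2 (adjusted p = 0.053 to 0.111), and the second without control 1, 2 or 4, either KO1_RES library or KO2_RES replicate 1 (0.057 to 0.0792). In KO_RES against control CDH1, TJP3 and F11R fell, 0 rose and 16 were not called, beside 5.47% of all genes called, with a median of -0.09 against 0.03 over all; TJP3, a tight junction scaffold, changed by -2.07 (SE 0.44, adjusted p = 0.0196). The F11R call (-0.48, SE 0.11, adjusted p = 0.0291), for a tight junction membrane protein, was lost without control 1, 2 or 4, KO1_RES replicate 1, KO2_RES replicate 1 or KO2 replicate 2 (0.056 to 0.0945). In KO1 against control 0 rose and 6 fell of the 19, CTNNB1 (beta-catenin, -0.92, SE 0.22, adjusted p = 0.017, lost without either KO1 library at 0.0846 and 0.146) among them, beside 18.1% of all genes called. In KO2 1 rose and 2 fell, beside 10%. TJP3 was among the fallen in both lines, and CDH1 in neither. After rescue TJP3 fell in KO1_RES and KO2_RES against control and CDH1 in KO1_RES alone, beside 18.2% and 9.62% of all genes called.

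**Figure D4:**
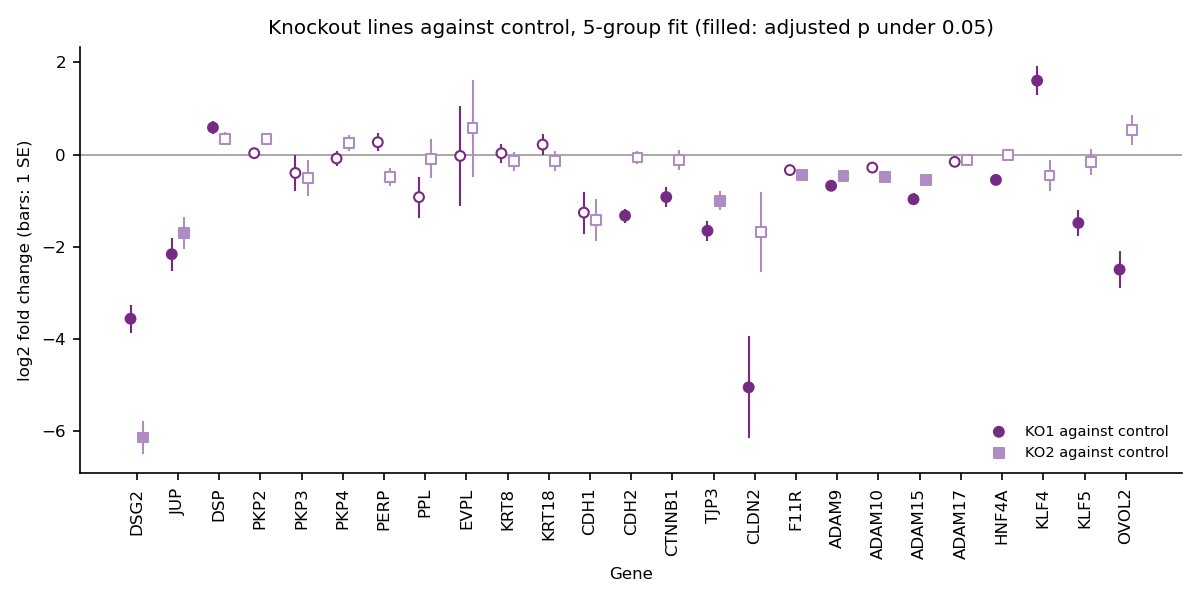
Log2 fold change with 1 SE of KO1 and of KO2 against control from the fit of 5 groups, for DSG2 and selected genes of the partner, keratin, junction, protease and transcription factor lists; filled symbols have an adjusted p under 0.05. DSG2, at -3.56 in KO1 and -6.14 in KO2, and JUP are low in both lines, while CLDN2, a claudin of tight junctions, is at -5.05 in KO1 (adjusted p = 0.0108, not called without either KO1 library at 0.118 and 0.0727) and -1.68 in KO2.

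None of the tested proteases that cut desmosomal cadherins at the cell surface rose. Of 4 tested among 8 genes, ADAM9 (-0.57, SE 0.11, adjusted p = 0.0154; 0.0513 without KO1 replicate 2) and ADAM15 (-0.74, SE 0.19, adjusted p = 0.0437) fell in KO against control, 0 rose and 2 were not called, beside 6.28% of all genes called, with a median log2 fold change of -0.47 against 0.01 over all genes tested. The ADAM15 call was lost without any 1 control, either KO1 library, KO2 replicate 1 or KO2_RES replicate 1 (adjusted p = 0.0504 to 0.116). In KO_RES against control ADAM9 (-0.71, SE 0.11, adjusted p = 0.00631) and ADAM10, the sheddase best known for cutting cadherins (-0.48, SE 0.11, adjusted p = 0.0262), fell, and 2 were not called, beside 5.47% of all genes called, with a median of -0.54 against 0.03 over all; the ADAM10 call was lost without control 3 or 4, either KO1_RES library or KO2_RES replicate 1 (0.0507 to 0.0732). Of 14 transcription factors and repressors of epithelia tested among the 22 reported here, none was called in KO or KO_RES against control, where 6.28% and 5.47% of all genes were. Their median log2 fold changes were 0.06 and 0.14, against 0.01 and 0.03 over all genes tested.

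As a measure of likeness, the correlation of log2(CPM + 0.5) over the 12 libraries was computed between each cadherin that averaged at least 1 CPM and 13682 genes with a symbol and at least that mean. All 12 points share the gap between the controls and the other 8 libraries, so a high r mainly marks genes with that gap. DSC2 and DSG4 were closest to each other (r = 0.995). CD46, LTBP1, CACNA2D1, MFSD10 and TOR4A came next for DSC2 (0.975 to 0.989), and CACNA2D1, CD46, ABCA8, TFPI2 and LTBP1 for DSG4 (0.98 to 0.988). DSG2 was most like TOR4A, LIMCH1, KDELR1, HPGD, FKBP9 and MAN2B2 (0.971 to 0.986), and had r = 0.951 with DSC2 and 0.949 with DSG4. DSC3, with its split among controls, was most like SPINK4, EVA1C, HGF, PROCR, LINC02535 and SLC6A19 (0.964 to 0.987) and had r = 0.851 with DSC2, 0.803 with DSG4 and 0.753 with DSG2.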

How the data were processed

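The authors deposited whole-number read counts per gene for each library, made with STAR 2.6.0b on GRCh37, per the submitters' processing notes, from a stranded mRNA kit, per the labels' protocols. Annotation release and trimming are not given in the sources used here. The reverse-strand counts were used (19.8 to 21.1 times the other strand); 4 lines of unassigned reads (23.2% to 31.5% of reads) were left out. Symbols came from a gene name table and GENCODE release 29, which also gave gene order and lengths; its build differs, so its coordinates are not used.

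Counts were tested in R 4.3.3 with edgeR 4.0.16 (filterByExpr, TMM, quasi-likelihood tests, Benjamini-Hochberg over all genes tested, called under 0.05) in fits of 3 groups and of 5 groups; SE is the log2 fold change divided by the root of F. DESeq2 1.42.0, RLE scaling, no filter, unstranded counts, other groupings, blocks and left-out libraries were alternatives. The edgeR step was tested on simulated data. The simulated libraries were independent, without lines or split controls, so that test does not give the error rate in these data.

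Same-numbered KO and KO_RES libraries of a line deviated together from the mean of their state (correlations 0.778, 0.849, 0.829 and 0.767, which the shared line raises) and from that of their line and state (0.464 in line 1, 0.642 in line 2), so number and line pair them. Members, lists and the naming rule (list genes called or averaging at least 1 CPM, HKDC1, neighbours, and the 6 most alike genes) were chosen with earlier results of these data known. Some genes of the lists are not reported here.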

Additional observations from a re-analysis of the deposited data

Results flagged for a closer look

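DSG2 differed between the knockout lines: KO2 minus KO1 was -2.58 on the log2 scale (SE 0.32, adjusted p = 0.000731), with 1.16 and 2.07 CPM in KO2 and 10 and 9.39 CPM in KO1 libraries. Its change on rescue also differed in sign, down in both numbered pairs of line 1 and slightly up in both of line 2. The line 2 change was 0.19 on the log2 scale (SE 0.32) and not called. Its sign turned without KO2 replicate 1 or KO2_RES replicate 2. The difference in rescue effect between the lines was 2.39 on the log2 scale (SE 0.45) with an unadjusted p of 0.000263, but the adjusted p was 0.513. CDH2, which flanks the cluster, differed between the lines in the other direction, with KO2 minus KO1 at 1.26 (SE 0.17, adjusted p = 0.00115). One library stood apart within its group: PKP3, a plakophilin, was at 1.24 CPM in control 4 and between 0.574 and 0.672 CPM in the other controls. It was 1 of 46 groups of 4 libraries checked, and chance flags about 1 in 20.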

How the results depend on the processing

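The fall of DSG2 in KO, KO_RES, KO1 and KO2 against control kept its direction under every alternative run and its call under all but the fit of the 8 libraries with matching labels, at -4.35 for KO (adjusted p = 0.0798) and -5.75 for KO_RES (0.0538). Leaving out 1 library gave -4.78 to -4.00 for KO, -5.96 to -5.71 for KO_RES, -2.39 to -2.05 for KO1_RES against KO1 (adjusted p up to 0.342) and -0.295 to 0.672 for KO2_RES against KO2, whose sign turned at -0.176 and -0.295. For KO_RES against KO, DSG2 was 0.059 by the genotype field and -1.06 with the replicate block of line and number, which moved the genes called from 0 to 8. Of the genes given for that contrast the block changed the call of HKDC1 (3.15, adjusted p = 0.00346) and not of DSG2. The rescue difference between lines passed without a filter (2.37, adjusted p = 1.16e-10).

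Genes called in KO against control numbered 1206, and 2346 by DESeq2, 1883 by the genotype field, 72 with 8 libraries, 3312 as the mean of lines, 337 without controls 1 and 2, and 509 to 1506 without 1 library. For KO_RES against control 1050 became 2122, 1874, 64, 3171, 384 and 471 to 1138 in the same order, and 533 with only the groups compared. For KO_RES against KO 0 became 1 without a filter, 6 by DESeq2, 2 as the mean of lines, 3 with line as a block, and 0 to 0 without 1 library. By line, leaving out 1 library gave 1265 to 4193 (KO1), 530 to 2331 (KO2), 1 to 40 (KO1_RES against KO1), 0 to 1 (KO2_RES against KO2) and 854 to 2775 (KO2 minus KO1); KO2 had 3861 without controls 3 and 4 and 3385 without a filter, which gave 548 and 41 for the rescues. The causes were not tested. With 10 counts as the floor 3 members, not 1, were at it in every control. Signs turned for uncalled genes in KO against control: PKP4 (-0.096 without controls 1 and 2, -0.003 to 0.212 without 1 library), PERP (0.073 with 8 libraries, 0.151 without controls 3 and 4, -0.264 to 0.082 without 1 library) and HKDC1 (1.69 by the genotype field; in KO1 -0.158 to 0.048 without 1 library). Of 63 member levels under other scalings or unstranded counts, 62 moved by less than 1 SD. Over 41 results on other named genes and 778 alternatives, 632 kept direction and call, 126 lost the call, 11 gained it and 9 turned in sign. Without the 4 libraries of conflicting labels, the 3-group calls of JUP, TJP3, F11R, KRT7, ADAM9, ADAM10, ADAM15 and TTR were lost (adjusted p = 0.0873 to 0.24), as was CDH1 in KO_RES (0.0925). Without controls 1 and 2 those calls, except JUP and ADAM10, and CDH1 in both were lost too (0.0543 to 0.41). Line alternatives and the values against single pairs of controls were added after the data were seen. DSC1, DSG1 and DSG3, under 10 counts in every library, are too shallow for differences to be called.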

Other observations

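Genes outside the cluster also met the limit that DSC2, DSC3 and DSG4 met. The 22 genes that averaged at least 1 CPM in control libraries and stayed under 0.25 CPM in all 8 knockout and rescue libraries included, beside DSC2, DSC3 and DSG4, genes of cell adhesion and signalling chosen here after their values were seen. The highest value in those 8 libraries was 0.144 CPM for DSC2, 0.0272 CPM for DSC3 and 0.0468 CPM for DSG4; VCAM1, CD36, HGF and DKK1 lay above all 3, closer to the limit. CTNND2, a catenin relative, was at most 0.0468 CPM in any KO_RES or KO library and averaged 4.18 CPM in control libraries. VCAM1, an adhesion molecule of the immunoglobulin family, was at most 0.22 CPM in the KO_RES and KO libraries and averaged 6.75 CPM in control libraries. CD36, a fatty acid transporter and scavenger receptor, was at most 0.22 CPM in those 8 libraries and averaged 24.3 CPM in control libraries, and HGF, the hepatocyte growth factor, was at most 0.243 CPM there and averaged 5.65 CPM in control libraries. DKK1, a secreted Wnt inhibitor, and SOX2, a stem cell transcription factor, were at most 0.208 and 0.14 CPM in those 8 libraries and averaged 1.30 and 1.13 CPM in control libraries.

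Of 16 epithelial transcription factors and repressors reported here and tested by line, 3 fell (OVOL2, KLF5 and HNF4A), 1 rose (KLF4) and 12 were not called in KO1 against control, beside 18.1% of all genes called. For KO2 minus KO1 the same 3 were higher and KLF4 was lower, beside 12% of all genes called. OVOL2, a zinc finger factor that maintains epithelial identity, was at 1.25 and 1.94 CPM in KO2 libraries, 0.24 and 0.14 CPM in KO1 libraries and 0.842 to 1.45 CPM in control libraries; it fell in KO1 against control (log2 fold change -2.49, SE 0.40, adjusted p = 0.00236), and KO2 minus KO1 was 3.03 (SE 0.44, adjusted p = 0.00166). KLF5 fell in KO1 against control (-1.48, SE 0.29, adjusted p = 0.00637), and KO2 minus KO1 was 1.32 (SE 0.32, adjusted p = 0.0232). Without either KO1 library the KLF5 fall was not called (adjusted p = 0.0574 and 0.0677), and its difference between lines was not called without either KO1 library or KO2 replicate 1 (0.116 to 0.155). HNF4A, a master factor of hepatocytes, changed by -0.55 in KO1 against control (SE 0.12, adjusted p = 0.00909; 0.079 and 0.0792 without either KO1 library), and KO2 minus KO1 was 0.53 (SE 0.13, adjusted p = 0.0251; 0.0983 to 0.133 without any 1 library of either line's knockout). KLF4 rose in KO1 against control (1.60, SE 0.31, adjusted p = 0.00583; 0.13 without KO1 replicate 1), and KO2 minus KO1 was -2.06 (SE 0.39, adjusted p = 0.00713; 0.0676 without KO1 replicate 1 and 0.0778 without KO2 replicate 2).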
